A study of Mus musculus with 8 samples.

Results

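Atf4, Atf5, Atf3, Ddit3, Cebpg, Trib3, Chac1, Sesn2, Nupr1 and Ppp1r15a are the transcription factors and effectors of the Atf4 stress response, and their messenger RNA was followed in 4T1 cells given acetate. All 10 genes were found among the 20189 genes of the expression table by their Ensembl identifiers. The genes were selected on measured values: earlier results of the same comparison, in which several of them were lower with acetate, were known when the group was drawn up. Their difference between acetate and vehicle is therefore given as a description: no p-value is given for it, and counts past a threshold only describe the genes beside the same count over all genes.

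4T1 is a mouse mammary carcinoma cell line, wild type per the labels, and it seeds lung metastases when it is injected into mice. For 48 hours the cells received acetate at 5 mM or, as vehicle, water, in the same serum-containing medium, and no other agent or allele separated the groups. Each group had 4 libraries of polyadenylated RNA, and the vehicle and acetate libraries of one number are called here an experiment. The study sequenced them to ask how a larger supply of acetyl-CoA, which cells can make from acetate, promotes metastasis.

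The libraries held 19.9 to 29.3 M reads (M, mega). Values are normalised reads on a total of 20000000 per library, so 1 unit is about 1 read. A gene's value is its share of the counted reads of the library, not corrected for gene length. In these bulk samples fewer cells that express a gene and less of its RNA per cell cannot be told apart. The summed level of 8 epithelial markers ran from 48296 to 70429 in vehicle and from 51624 to 72703 in acetate libraries. Of the other cell types, the summed levels were 229 to 1533 in vehicle and 394 to 2009 in acetate for 5 fibroblast markers, nearly all Pdgfra, 93.1 to 203 and 100.5 to 214 for 4 leukocyte markers, and 2.44 to 8.19 and 3.77 to 10.5 for 4 endothelial markers. Both libraries of experiment 1 stood apart from the other 6 on the first principal component, at -105 and -90.1 against 8.18 to 65.0, so counts are also given without that experiment.

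Atf4 is the central transcription factor of the integrated stress response. Kinases that sense amino acid shortage, misfolded protein in the endoplasmic reticulum, viral RNA or haem shortage phosphorylate the initiation factor eIF2, which slows translation in general while the Atf4 message is translated more. Atf4 then binds, with partners of the C/EBP family, to C/EBP-ATF response elements and raises genes for amino acid synthesis, amino acid import and tRNA charging, as well as a set of feedback and death genes to which Ddit3, Trib3, Chac1 and Ppp1r15a belong. Because much of this control acts on translation, mRNA levels do not measure Atf4 protein.

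The recognition sequence behind this response was looked for in the members' promoters, taken as the 300 bases from 250 before to 50 after each RefSeq transcription start (build GRCm38.p6). All 10 genes had such a window, and Atf5 had windows at 2 starts. The core of the C/EBP-ATF response element was searched as TGATGNAA on both strands, and no match of it overlapped a match of another motif in these windows. It was present in 4 of the 10 genes, against 3.97% of all 32851 promoters of the same length and 2.99% of the 11818 genes of the table with a window. The stretches that hold it are shown because this element is the known binding sequence of Atf4. Each is written 5′ to 3′ along the gene's strand with the core in capitals, which here lies on the opposite strand and so reads as its reverse complement. They are Chac1 at chr2:119351009-119351096 (plus strand), Atf3 at chr1:191183396-191183483 (minus strand), Nupr1 at chr7:126625533-126625620 (minus strand) and Trib3 at chr2:152344028-152344057 (minus strand).
Chac1: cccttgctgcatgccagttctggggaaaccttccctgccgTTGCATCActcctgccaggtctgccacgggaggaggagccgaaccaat
Atf3: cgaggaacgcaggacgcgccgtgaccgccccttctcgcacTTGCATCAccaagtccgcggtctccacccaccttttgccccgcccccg
Nupr1: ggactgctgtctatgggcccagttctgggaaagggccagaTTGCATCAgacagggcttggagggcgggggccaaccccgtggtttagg
Trib3: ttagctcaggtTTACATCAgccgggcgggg

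The core began 193 bases before the start of Chac1 and 110 bases before that of both Atf3 and Nupr1, and in Trib3 it lay just after the start, from base 14 to base 21. The cAMP response element, TGACGTCA, which Atf1, Creb and related factors bind, was found in 1.79% of all promoters, in 3.42% of the genes of the table and in 1 member, Ppp1r15a, from 12 to 5 bases before the start.
Ppp1r15a (chr7:45526269-45526320, minus strand): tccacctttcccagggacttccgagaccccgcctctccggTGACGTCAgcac

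The CCAAT box (CCAAT, either strand) was held by 7 of the 10 genes, by 42.5% of the genes of the table and by 37.4% of all promoters. The motif that carries it in endoplasmic reticulum chaperone genes, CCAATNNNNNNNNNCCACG, was in none of the 10 and in 0.119% of all promoters. These matches are letters in a window, and no binding was measured.

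**Figure D1:**
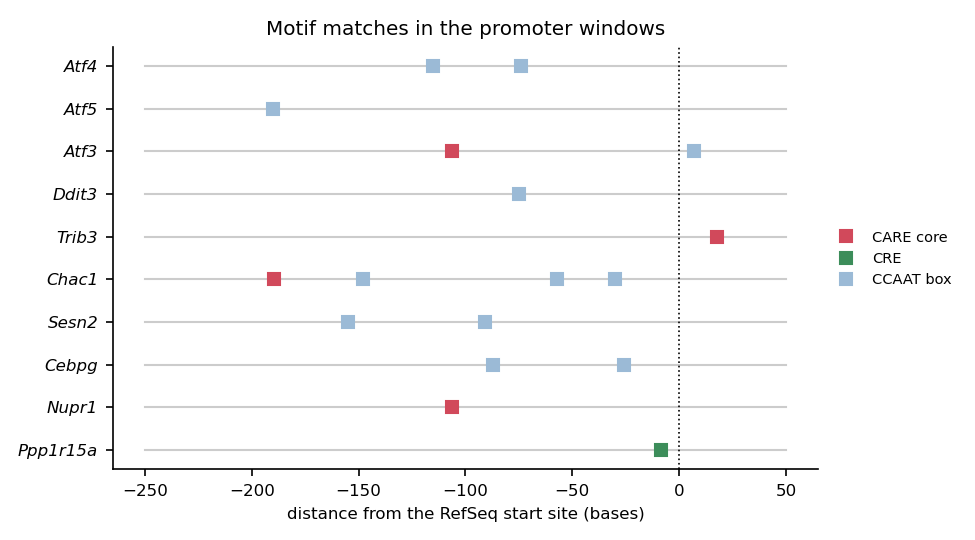
Positions of motif matches in the promoter windows of the 10 genes, drawn as distance in bases from the RefSeq start site (dotted line); grey lines are the 300-base windows, and both Atf5 windows share a line. Red squares mark the C/EBP-ATF core (CARE core) in Chac1, Atf3, Nupr1 and Trib3, green the cAMP response element in Ppp1r15a and blue the CCAAT box in 7 genes.

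With acetate, Atf4, Atf5, Trib3, Chac1, Sesn2 and Cebpg were lower than vehicle in each of the 4 experiments, whereas Atf3, Ddit3, Nupr1 and Ppp1r15a went down in some experiments and up in others. The falls were largest for Atf5, at -0.72 ± 0.13 (SE) on the log2 scale, for Chac1 and for Trib3, and smallest for Cebpg, at -0.15 ± 0.04. Changes here are the difference of log2(value + 1) from a limma fit across all genes with a term for the experiment. Over the 10 genes the median change was -0.30, against 0.02 over all genes. The 6 genes lower in every experiment compare with 11.4% of all genes, and the same 6 passed the adjusted threshold of 0.05 as lower, which 2.65% of all genes did. With a pseudocount of 0.1 in place of 1 the count was 5, without Cebpg. None passed it as higher, as 5.99% of all genes did. Nothing is read from these counts, since the comparison helped to choose the genes. Without a term for the experiment none of the 10, and 0 of all genes, passed the limma threshold. In that fit 353 of all genes had an unadjusted p under 0.05. None of the 10 had all acetate libraries below all vehicle libraries. The share of all genes with such a separation was not counted, so nothing is read from this either.

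**Figure D2:**
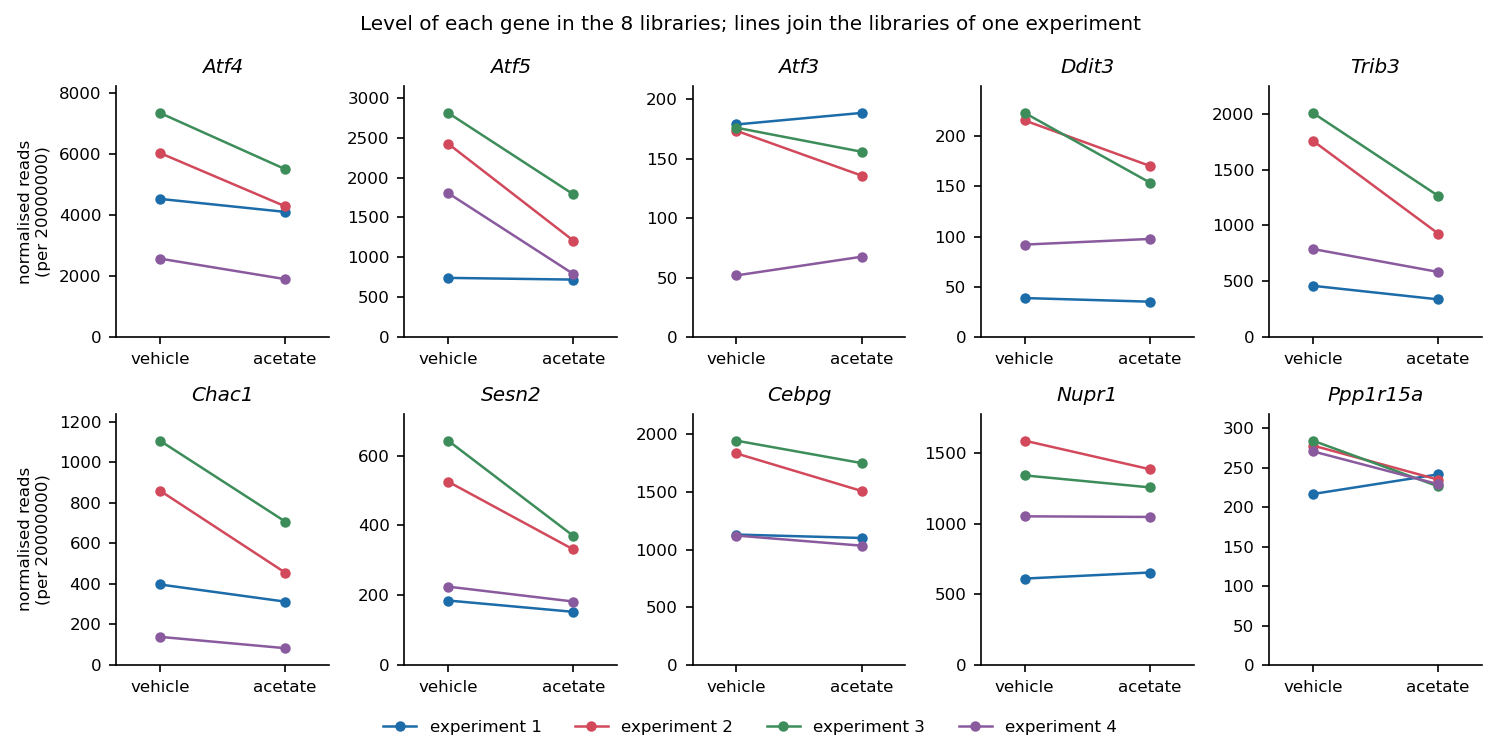
Normalised reads (per 20000000) of each gene in vehicle and acetate libraries, with a line joining the libraries of one experiment. Lines fall in all 4 experiments for Atf4, Atf5, Trib3, Chac1, Sesn2 and Cebpg; the spread between experiments exceeds the step from vehicle to acetate in most panels.

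Atf4 (ENSMUSG00000042406, chromosome 15, 80255184 to 80257541, plus strand) was the most abundant of the 10. It had 4529, 6033, 7345 and 2573 normalised reads in vehicle experiments 1 to 4 and 4102, 4287, 5503 and 1900.3 in the acetate libraries, with means of 5120 ± 2051 and 3948 ± 1499.9 (SD, n = 4). Acetate was below its own vehicle by 9.42% in experiment 1 and by 25.1% to 29.0% in the other 3, for a change of -0.37 ± 0.05. The groups overlapped, since acetate libraries 1 to 3 lay above vehicle library 4, and acetate library 3 also above vehicle library 1.

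Atf5 (ENSMUSG00000038539, chromosome 7, 44812256 to 44816658, minus strand), a relative of Atf4 whose own translation is also raised under stress, fell the most. Its vehicle libraries had 743, 2424, 2810 and 1804 normalised reads and its acetate libraries 721, 1209, 1789 and 791. Acetate was 2.91% below vehicle in experiment 1 and 50.1%, 36.3% and 56.1% below it in experiments 2 to 4, so the fall rests on 3 experiments. Acetate libraries 2 to 4 nevertheless lay above vehicle library 1, so the groups overlapped. Its exons share 82 bases, or 4.11%, with Nup62 on the other strand, a gene at 2399 normalised reads, and the use of strand in the counting is not stated.

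Cebpg (ENSMUSG00000056216, chromosome 7, 35046422 to 35056573, minus strand), a C/EBP protein that pairs with Atf4 on response elements, moved least among the genes that fell. It had 1131, 1834, 1945 and 1122 normalised reads in vehicle and 1101, 1509, 1751 and 1034 in acetate. The decrease ran from 2.62% in experiment 1 to 17.8% in experiment 2. Experiments 2 and 3 were the higher in both groups, and the acetate libraries of both lay above the vehicle libraries of experiments 1 and 4.

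Atf3 (ENSMUSG00000026628, chromosome 1, 191170296 to 191218039, minus strand), a stress-induced repressor and activator downstream of Atf4, had no common direction. It had 179, 173, 176 and 51.9 normalised reads in vehicle and 188, 136, 156 and 67.6 in acetate. Acetate was lower in experiments 2 and 3, by 21.7% and 11.5%, and higher in experiments 1 and 4. The mean change was -0.02 ± 0.11. Without experiments 1 to 4 in turn it was -0.05, 0.09, 0.03 and -0.15.

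Ddit3 (ENSMUSG00000025408, chromosome 10, 127290774 to 127296288, plus strand), which encodes CHOP, a factor tied to cell death in prolonged stress, was lower in 3 of 4 experiments. Its values were 38.9, 216, 223 and 92.1 in vehicle and 35.3, 170.4, 154 and 97.7 in acetate, and the change was -0.23 ± 0.11. The lowest library, acetate 1, held 45 reads. Its exons share 68 bases (3.97%) with Mars on the other strand, a gene at 3201 normalised reads, and 105 bases (6.13%) with another gene model of the same name.

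Among the effectors, Trib3 (ENSMUSG00000032715, chromosome 2, 152337422 to 152344032, minus strand), a pseudokinase that feeds back on Atf4 and Ddit3, was lower by 26.0% to 47.2% in every experiment. Its vehicle libraries had 459.6, 1757, 2007 and 789 normalised reads and its acetate libraries 338, 927, 1265 and 584. Both groups were lowest in experiment 1 and highest in experiment 3, and the range of acetate lay for the most part inside that of vehicle. The change of -0.62 ± 0.07 was -0.44, -0.92, -0.67 and -0.43 in experiments 1 to 4.

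Chac1 (ENSMUSG00000027313, chromosome 2, 119351229 to 119354381, plus strand), an enzyme that breaks down glutathione, had the widest range of the 10. It had 397, 860.3, 1107 and 139 normalised reads in vehicle and 312, 456, 708 and 82.7 in acetate, from 21.3% lower in experiment 1 to 47.0% lower in experiment 2. The highest vehicle library was 7.99 times the lowest, which is far more than any step from vehicle to acetate. Acetate 4, the lowest library, still held 115 reads.

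Sesn2 (ENSMUSG00000028893, chromosome 4, 132492032 to 132510501, minus strand), the leucine-sensing sestrin that restrains mTORC1, had 185, 526, 643 and 225 normalised reads in vehicle and 152, 331, 369.9 and 182 in acetate. Acetate was lower by 17.6% and 19.0% in experiments 1 and 4, where vehicle was low, and by 37.0% and 42.5% in experiments 2 and 3, where it was high. The change over all 4 was -0.51 ± 0.09.

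Nupr1 (ENSMUSG00000030717, chromosome 7, 126623249 to 126630861, minus strand), a small stress-induced chromatin protein, stayed close to its vehicle level. It had 612, 1590.3, 1344 and 1054 normalised reads in vehicle and 655, 1388, 1259 and 1049 in acetate, a change of -0.05 ± 0.05. The step ran from 12.7% lower in experiment 2 to 7.03% higher in experiment 1.

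Ppp1r15a (ENSMUSG00000040435, chromosome 7, 45522916 to 45526268, minus strand) encodes the phosphatase subunit GADD34, which removes the phosphate from eIF2 and so ends the response. It had 217, 278, 284 and 271 normalised reads in vehicle and 242, 235, 226 and 229 in acetate. Acetate was 11.5% higher in experiment 1 and 15.4% to 20.4% lower in the other 3, and the change was -0.16 ± 0.08. The acetate libraries spread by 6.74 (SD) around 233 and the vehicle libraries by 31.1 around 263.

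**Figure D3:**
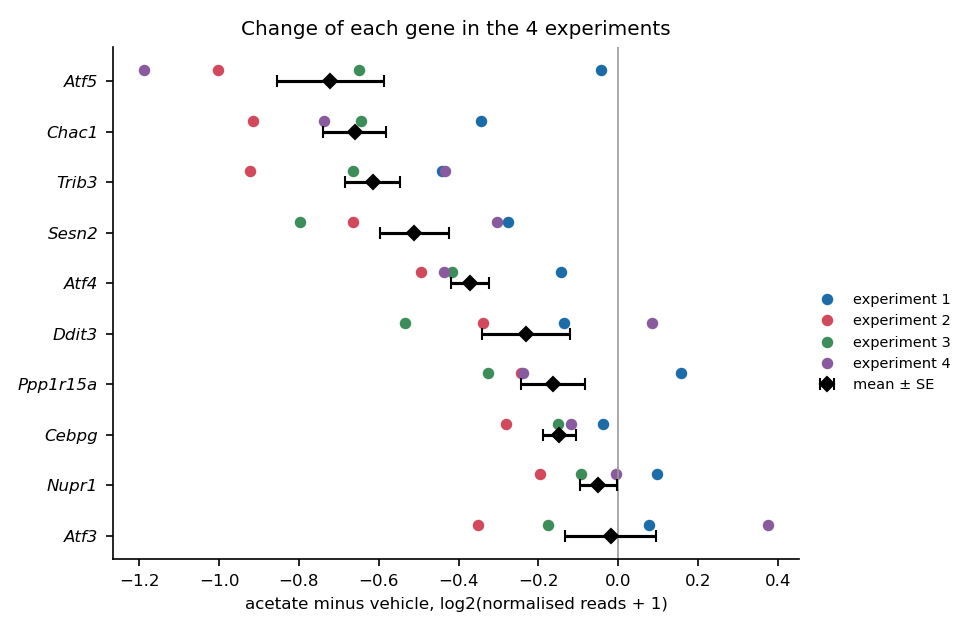
Difference of acetate from vehicle in log2(normalised reads + 1) for each of the 10 genes; coloured dots are single experiments and black diamonds the mean with its SE from the limma fit with a term for the experiment. All dots of Atf5, Chac1, Trib3, Sesn2, Atf4 and Cebpg lie below 0, and experiment 1 has the smallest fall of Atf4, Atf5, Chac1, Sesn2 and Cebpg.

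The experiments also differed in how far the group moved. The median step over the 10 genes was -0.09 in experiment 1, -0.42 in experiment 2, -0.48 in experiment 3 and -0.27 in experiment 4, with an SD of 0.17 over the 4. All 10 genes were lower in experiments 2 and 3, 7 were in experiment 1 and 8 in experiment 4, while 42.3% to 48.3% of all genes were lower in a single experiment. Leaving out experiment 1 moved the median of the 10 to -0.36 and the count past the threshold as lower from 6 to 7, while over all genes that count went from 535 to 559. Without experiment 2, 3 or 4 the count was 4, 3 and 4 of the 10, and 146, 78 and 137 over all genes.

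The level of these genes between experiments was not used to choose them, so it was tested. By limma's moderated F test of the experiment terms, adjusted over all genes, 9 of the 10 differed among the 4 experiments. So did 58.2% of all genes, and 82.5% of genes with a mean of at least 10 units, a filter that all 10 passed. The count of 9 is thus near the share of genes that pass this filter. The F test gave an adjusted p of 3.03e-09 for Chac1, 1.53e-08 for Atf4, 6.87e-05 for Atf5 and 9.13e-06 for Atf3. The exception was Ppp1r15a, with an adjusted p of 0.576. Between the highest and lowest vehicle library the level differed 5.73-fold for Ddit3, 4.37-fold for Trib3, 3.78-fold for Atf5, 3.48-fold for Sesn2 and 3.44-fold for Atf3, but 1.73-fold for Cebpg and 1.31-fold for Ppp1r15a. The experiment held from 20.6% (Ppp1r15a) to 98.4% (Nupr1) of a gene's variance over the 8 libraries.

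The genes did not share one order across experiments. Atf4, Chac1 and Atf3 were lowest in experiment 4 in both groups. Cebpg was also lowest there, though little below experiment 1, at 1122 against 1131 in vehicle and 1034 against 1101 in acetate. Ddit3, Trib3, Sesn2 and Nupr1 were lowest in experiment 1 in both groups, as was Atf5. Of the 45 pairs of these genes, the Pearson correlation of their log2 levels had a median of 0.73 over the 8 libraries, which are vehicle and acetate libraries of only 4 experiments and so not independent points. It was highest for Atf4 with Chac1, at 0.993, and lowest for Atf3 with Nupr1, at -0.09. No p is attached to these values.

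**Figure D4:**
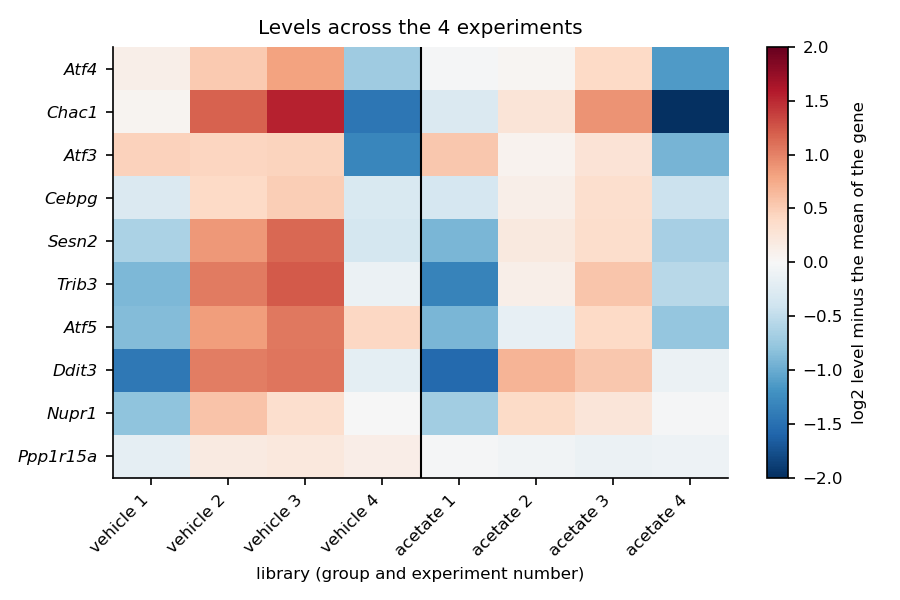
Log2(normalised reads + 1) of each gene minus the gene's mean over the 8 libraries (red above, blue below), with vehicle experiments 1 to 4 left of the black line and acetate experiments 1 to 4 right of it. Atf4, Chac1 and Atf3 are bluest in experiment 4, and Ddit3, Trib3, Sesn2 and Nupr1 in experiment 1. Cebpg is only slightly bluer in experiment 4 than in experiment 1.

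Compared per length of exon in the vehicle libraries, Atf4 stood highest at 2171 ± 870 normalised reads per kilobase (SD, n = 4). Atf5 came next at 976 ± 453, followed by Trib3 at 589.7, Nupr1 at 457, Chac1 at 382 and Cebpg at 268. Sesn2 had 114, Ppp1r15a 89.4, Ddit3 83.2 and Atf3 67.3 per kilobase. Among neighbours in this order, the ranges over the 4 vehicle libraries were separate for Cebpg and Sesn2 and overlapped for every other pair. Atf4 was nevertheless above Atf5, and Atf5 above Trib3, within each of the 4 libraries.

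The remaining genes of the pathway were counted in lists written with earlier results known. The same limma fit was used, with a term for the experiment and adjustment over all genes. Because those results were known, counts and p-values of listed genes are a description. They give no independent support for a change of the pathway. Of the 18 genes for eIF2, its kinases and its regulators, 4 fell and 0 rose. Beside the counts of this and the later lists, 2.65% of all genes fell and 5.99% rose. With a filter at a mean of 10 units, which raises these shares, 774 genes fell and 1489 rose. Eif2s2, a subunit of eIF2, fell by 0.20 ± 0.03 (limma adjusted p = 0.00352), and Eif2b5, Gcn1l1, the activator of the amino acid sensing kinase, and Ppp1r15b by 0.10 to 0.14. The median of this list was -0.04, against 0.02 over all genes.

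Close relatives of the 10 genes went both ways. Of 17, 3 fell and 2 rose. Ppp1r15b, among those that fell, is also counted in the list for eIF2. Trib2, a pseudokinase of the same family as Trib3, had 240.5, 1297, 1124 and 2262 normalised reads in vehicle and 288, 1758, 1544 and 2633 in acetate, so it was higher in every experiment (0.34 ± 0.05, limma adjusted p = 0.00131). Sesn3, a sestrin like Sesn2, rose by 0.23 ± 0.05 (limma adjusted p = 0.0157) and was higher in 3 of 4 experiments. Jdp2, which is close to Atf3 in sequence, fell by 0.29 ± 0.07 (limma adjusted p = 0.0228) and Atf1 by 0.14 ± 0.04 (limma adjusted p = 0.0473). Trib1 (0.02 ± 0.03), Sesn1 (0.19 ± 0.06), Cebpb (0.14 ± 0.08) and Chac2 (-0.09 ± 0.06) did not pass.

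Enzymes of amino acid synthesis and of one-carbon metabolism were mostly lower with acetate. Of 14 such enzymes, 11 fell and 0 rose, with a median of -0.33. Aldh1l2 and Mthfd2, mitochondrial folate enzymes, fell by 0.54 ± 0.08 and 0.50 ± 0.07, and Psph, the last enzyme of serine synthesis, and Pycr1, a proline synthesis enzyme, both by 0.46 (SE 0.05 and 0.09). Psph went from 1810.1, 2154, 2403 and 1281 normalised reads in vehicle to 1543, 1405, 1785 and 861 in acetate (limma adjusted p = 0.000652). It was lower in all 4 experiments, and acetate libraries 1 to 3 lay above vehicle library 4.

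Of 11 amino acid transporters, 8 fell and 0 rose, with a median of -0.23. The glycine transporter gene Slc6a9 went from 379, 912, 1038 and 761 normalised reads in vehicle to 297, 604, 778 and 512 in acetate, a fall of 0.48 ± 0.05 (limma adjusted p = 0.000351). Slc1a4, a neutral amino acid carrier, fell by 0.39 ± 0.05, and Slc7a5, the large neutral amino acid exchanger, and Slc7a11, the cystine importer, by 0.29 (SE 0.04 and 0.05). Of 19 cytosolic tRNA synthetase genes 13 fell and 0 rose, with a median of -0.20. Aars, Lars, Mars and Tars, which charge the tRNAs for alanine, leucine, methionine and threonine, fell by 0.38 ± 0.07, 0.30 ± 0.05, 0.28 ± 0.05 and 0.26 ± 0.04.

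A further list of 18 genes linked to Atf4 was split, with 3 that fell and 4 that rose. Stc2, a secreted glycoprotein of the stress response, Xpot, which exports tRNA from the nucleus, and Eif4ebp1, an inhibitor of translation, fell by 0.42 ± 0.06, 0.40 ± 0.04 and 0.30 ± 0.05. Map1lc3b, an autophagosome protein, rose by 0.22 ± 0.04 (limma adjusted p = 0.00497). Tnfrsf10b, a death receptor, Ddit4, an mTORC1 inhibitor, and Ndrg1 rose by 0.10 to 0.15. These 4 lists together held 62 genes, of which 35 fell, 4 rose and 23 did not pass, with a median change of -0.20. Without experiment 1 the counts were 38 and 4, and without experiments 2, 3 and 4 they were 18 and 1, 15 and 0, and 17 and 0. Without a term for the experiment 0 of the 62 passed.

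**Figure D5:**
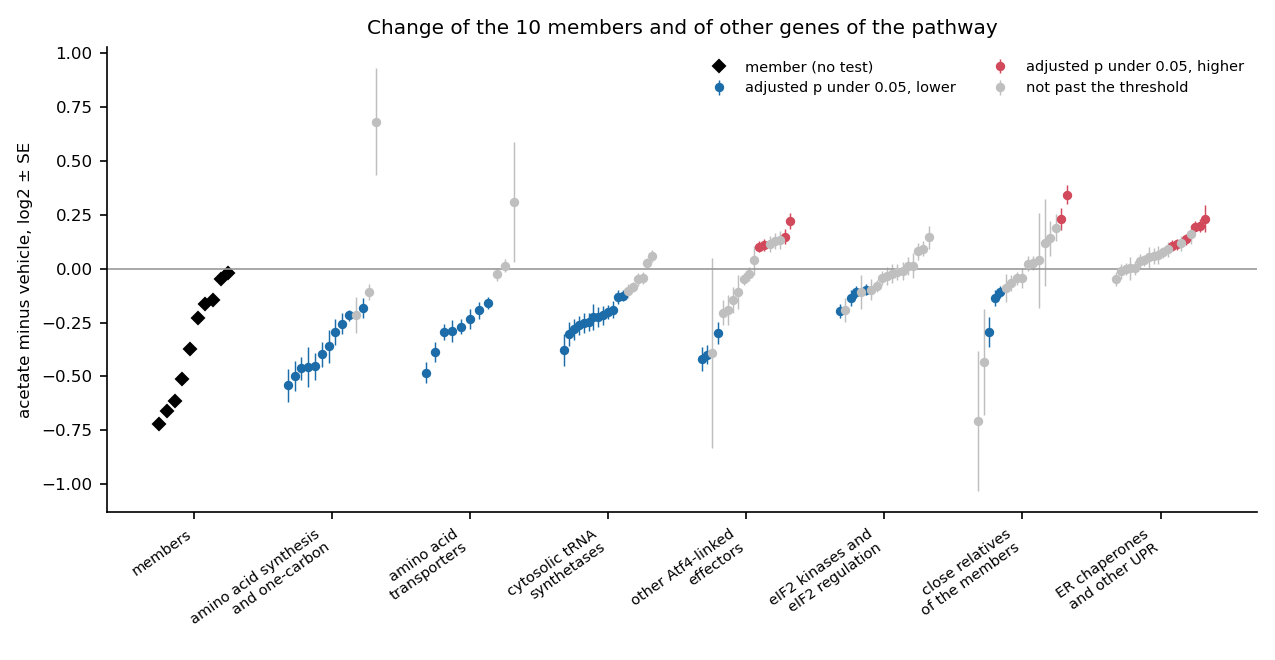
Difference of acetate from vehicle (log2, with SE bars for the listed genes) of the 10 genes, drawn as black diamonds without a test, and of each gene in 7 pathway lists; blue and red mark genes past the limma threshold as lower and higher, grey the others. In the lists for amino acid synthesis, transport and tRNA charging the coloured genes are all lower, and among endoplasmic reticulum genes all higher; UPR is the unfolded protein response.

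Genes of the other branches of the unfolded protein response did not go the same way. Of 20 endoplasmic reticulum chaperones and related genes 0 fell and 6 rose, with a median of 0.07. Calr, a calcium-binding chaperone, rose by 0.20 ± 0.03 (limma adjusted p = 0.00246) and Pdia6, a disulfide isomerase, by 0.19 ± 0.03 (limma adjusted p = 0.00148). Pdia6 went from 4962, 5953, 5839 and 5881.5 normalised reads to 5510.1, 6720.1, 6942 and 6765 and was higher in all 4 experiments. Sdf2l1 rose by 0.23 ± 0.06 and Hsp90b1, the reticulum's Hsp90, by 0.14 ± 0.03. Hspa5 (BiP), the chaperone that holds the stress sensors inactive, changed by 0.08 ± 0.02 and did not pass (limma adjusted p = 0.0821). Without experiments 1 to 4 in turn, 5, 2, 1 and 3 of these genes rose. Under median-of-ratios scaling 4 rose and by DESeq2 3, with 0 lower under both. Of 11 target genes of p53, another stress factor that can raise Sesn2, 1 fell, Aen, by 0.22 ± 0.05, and 0 rose.

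Among markers of other cell types, 2 of 5 fibroblast genes rose, Pdgfra by 0.52 ± 0.06 and Pdgfrb by 1.40 ± 0.29. Of 4 leukocyte genes Csf1r rose, by 1.08 ± 0.20, from at most 17.9 to at most 35.5 normalised reads, and of 4 endothelial genes none did. Of 8 epithelial markers Krt19, Cldn4 and Cdh1 rose, by 0.40 ± 0.04, 0.30 ± 0.03 and 0.15 ± 0.03. The part of these changes in those of the stress genes was not tested.

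Promoter matches and changes were set side by side over the same lists. Of the 44 genes of the pooled lists with a promoter window, 13 held the C/EBP-ATF core, or 29.5%, and 9 of these 13 fell and 0 rose. Aars, Asns, Gars, Iars, Pycr1, Slc1a4, Slc7a11, Tars and Yars were those 9. Of the 31 without it 15 fell and 2 rose. The core was in 0 of 18 endoplasmic reticulum genes, of which 8 held the chaperone element. Of these 8, Calr, Hsp90b1 and Pdia6 rose and Canx, Creld2, Dnajc3, Hspa5 and Syvn1 did not pass, and of the 10 without the element 3 rose. Of the genes of the table outside these groups, 14 of 336 with the core fell (4.17%) and 23 rose (6.85%), and of 11410 without it 3.23% fell and 7.91% rose. These shares were not tested against each other. Among the 10 stress genes, the 4 with the core included Chac1 and Trib3, lower in every experiment, and Atf3 and Nupr1, which were not, and Atf4, Atf5, Sesn2 and Cebpg were lower without a match in the window.

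The genes most like the 10 were sought among 11098 genes with a mean of at least 50 normalised reads, by Pearson correlation with the mean of the 10 standardised levels over the 8 libraries of 4 experiments. The closest were Lck, at 0.989, Cyb5r1, Arl14ep, Mboat7 and Gpt2, at 0.978, followed by Gins4, Stbd1, Vps52, Lonrf1 and B230354K17Rik. Gpt2, an alanine aminotransferase, is also in the amino acid synthesis list and fell by 0.36 ± 0.08. That fall is a description, since Gpt2 was picked here for following the 10 genes over the same libraries. No p is given for the correlations, because the libraries come in same-experiment pairs.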

How the data were processed

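Stranded mRNA libraries were sequenced from 4T1 cells (4 vehicle, 4 acetate). Alignment to the mouse transcriptome (GRCm38/mm10) and counting per gene were done by the authors; the submitters' notes name STAR and HTSeq, with versions not given in the sources used here, and strand use in counting is not stated. What was deposited is a signal in normalised reads: the authors scaled each library to its size, and the values of each sum to 20000000. The table kept 20189 genes, each above 0 in at least 4 libraries. All values (100%) were whole multiples of 1 read within 0.05 read, which gave back 19.9 to 29.3 M reads (M, mega) per library, so the precision of a gene follows from its reads. Identifiers were matched to GENCODE M21 (20004 with a symbol), and promoter sequences are RefSeq's.

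Values were analysed as log2(value + 1) in limma 3.58.1 (R 4.3.3; trend, two-sided) with terms for group and replicate number over all 20189 genes. P-values were adjusted by Benjamini-Hochberg, and 0.05 was the threshold. The fit called 535 genes lower and 1209 higher. The labels give same-numbered libraries one code, and the libraries were paired by number. The correlation of deviations from the group means between same-numbered libraries was 0.81, 0.27, 0.20 and 0.69 over 18188 genes. Differently numbered libraries were not compared in this way, so these values cannot show that the numbers pair the libraries. Other pairings were not tested. The study ranked genes unpaired, and that fit is an alternative. The members and lists were chosen with earlier results of these data known. Named genes were the members, up to 4 called genes per list with the largest change (mean of at least 10 units), relatives of the members and the 10 genes most like them; Tnfrsf10b, Ddit4, Ndrg1, Asns, Gars, Iars, Yars, Hspa5, Canx, Creld2, Dnajc3 and Syvn1 were added after their values were seen. Alternatives were other pseudocounts, filters and scalings, edgeR 4.0.16 and DESeq2 1.42.0 on the recovered reads, and each experiment or library left out. Listed genes absent from the table were not analysed here.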

Additional observations from a re-analysis of the deposited data

Results flagged for a closer look

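In groups of 4 libraries, 7 of 92 groups tested had 1 library farther from the others than Dixon's 95% critical value of 0.829 allows (gap to the nearest library over the range), where chance alone flags about 5% of groups. Atf3 in vehicle was lowest in experiment 4, at 51.9 against 173 to 179 normalised reads (gap 0.958), and Ppp1r15b in acetate was also lowest in experiment 4, at 2058 against 3461 to 3641 (0.886). The other 5 were libraries of experiment 1. In vehicle, Slc7a11 was lowest, at 651 against 1501 to 1652 (0.849), Pdia6 was lowest, at 4962 against 5839 to 5953 (0.885), Calr was highest, at 13872 against 9426 to 9711 (0.936), and Aen was highest, at 1709 against 191 to 445 (0.833). In acetate Pdia6 was again lowest, at 5510.1 against 6720.1 to 6942 (0.845).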

How the results depend on the processing

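With no replicate block, that is without pairing, 0 genes were called lower and 0 higher, among them 0 of the 10 stress genes, 0 and 0 of the 62 pathway genes and 0 of the endoplasmic reticulum genes. With a filter at a mean of 10 units 7 pathway genes rose, with median-of-ratios scaling 2 did and 821 of all genes fell, by edgeR on the recovered reads 1086 of all genes fell and 1314 rose, and by DESeq2 473 fell and 653 rose, with 1 pathway and 3 reticulum genes. Each experiment left out in turn gave 78 to 559 genes lower and 331 to 1103 higher, 3 to 7 stress genes past the threshold, a median of the stress genes from -0.36 to -0.25, 15 to 38 pathway genes lower and 0 to 4 higher, 1 to 5 reticulum genes higher and 0 lower, and 8 to 9 stress genes and 30.7% to 57.5% of all genes differing among experiments. Without pairing, a single library left out gave 0 calls and medians of the stress genes from -0.57 (without vehicle 1) to -0.10 (without acetate 4), with -0.56 without vehicle 4 and -0.51 without acetate 3. The 535 lower calls were as few as 78 without experiment 3. By edgeR without experiment 3, an alternative chosen after seeing the data because 1 read was worth about 1 unit in its vehicle library, 556 fell and 832 rose. Of called genes 69.3% were higher, 54.9% with median-of-ratios and 60.5% with quantile scaling, which moved the median of all genes by -0.02 and -0.04. The cause of these moves was not tested. None of the stress genes called in the main fit changed sign under an alternative. The signs of single list genes were not followed. Among the 10 stress genes, depth limits Ddit3 and Atf3 most.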
